A study of Mus musculus with 3 samples.

Results

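The genes that hydroxylate, fold and cross-link collagen were measured in the stromal cells of day 5 masses from a mouse model of heterotopic ossification (HO), the formation of bone outside the skeleton. The set held 10 of the 31053 genes in the count tables and was taken by symbol: the prolyl 4-hydroxylase alpha subunits *P4ha1*, *P4ha2* and *P4ha3*, the lysyl hydroxylases *Plod1*, *Plod2* and *Plod3*, the lysyl oxidases *Lox*, *Loxl1* and *Loxl2*, and the collagen chaperone *Serpinh1*. All 10 were found. All 10 also passed the filter on low values in stromal cells, a mean of at least 5 CPM (counts scaled to a library total of 1000000 UMIs) over the libraries.

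The mice were female, of the outbred CD-1 stock and 6 to 8 weeks old, and each group was sequenced as 1 droplet library in which the individual masses cannot be told apart. The Matrigel-only mice carried a subcutaneous implant of Matrigel, a basement membrane gel, without growth factor and were given nothing by mouth. The Vehicle mice carried Matrigel with rhBMP2, a recombinant human growth factor that drives cartilage and bone formation, and received corn oil/DMSO by gavage. The Palo mice carried the same rhBMP2 implant and received 4 mg/kg of palovarotene, an agonist of retinoic acid receptor gamma, by gavage. Vehicle and palovarotene were both given daily. All masses were taken on day 5 and dissociated with dispase. Vehicle and Matrigel-only differed in both rhBMP2 and gavage, and the parts of the 2 cannot be told apart. Palo and Matrigel-only differed in rhBMP2, gavage and palovarotene, whose parts cannot be told apart either. Each group is 1 library, so no difference between groups could be checked over replicates, and none was tested.

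Collagen chains are modified in the endoplasmic reticulum before they form a triple helix. Prolyl 4-hydroxylase, a tetramer of alpha subunits and the disulfide isomerase P4hb, makes the hydroxyproline that keeps the helix stable, and the lysyl hydroxylases modify lysines that later carry sugars or cross-links. The chaperone HSP47, encoded by *Serpinh1*, accompanies procollagen to the Golgi, and outside the cell the copper-dependent lysyl oxidases convert lysines to aldehydes from which cross-links form. Both families of hydroxylases need oxygen, iron, 2-oxoglutarate and ascorbate, and several of their genes are known targets of hypoxia-inducible factors.

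Cells were kept when they held 200 to 6000 genes and at most 5% mitochondrial counts, which left 21503 of 23219 barcodes. Each count is a unique molecular identifier (UMI), and the libraries held 44252421 to 46901673 of them. A cell was called stromal when *Col1a1*, *Col1a2*, *Col3a1*, *Dcn* and *Lum* together gave at least 1% of its UMIs. This gave 2085 stromal cells in the Matrigel-only library, 1373 in Vehicle and 1184 in Palo, with medians of 9082, 17114 and 12955 UMIs. The 10 stromal markers outside the gate, *Pdgfra* and *Prrx1* among them, were all at 5 CPM or more in each library, and summed to 21487 to 29823 CPM. Macrophage markers summed to 855 CPM in Matrigel-only, to 269 in Vehicle and to 733 in Palo stromal cells, with none of the 8 markers at 0. Without the stromal cells holding 0.5% macrophage UMIs, the count of members 1.5-fold apart was 5, 7 and 1 in Vehicle over Matrigel-only, Vehicle over Palo and Palo over Matrigel-only, against 6, 7 and 1 with them. With them, 10.7% of all genes were higher and 17.6% lower, 9.39% and 14%, and 2.69% and 6.31% in these comparisons. The share of all genes was not counted without them. Chondrocyte markers summed to 55.7, 4029 and 60.0 CPM and markers of *Pi16* progenitors to 5318, 1221 and 2889, and the members' values are also given by class of cell. The Vehicle gate had more cells near its limit, with 99 cells between 1% and 2% against 38 and 8, and 16, 17 and 8 barcodes were shared between pairs of libraries, of which 1 was stromal in both.

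Stromal cells were then split by *Pi16*, a marker of adventitial fibroblast progenitors, and *Acan*, the cartilage proteoglycan aggrecan, each detected as at least 1 UMI. *Pi16* without *Acan* was found in 1152 cells (55.3%) of Matrigel-only, 132 (9.61%) of Vehicle and 368 (31.1%) of Palo. *Acan* without *Pi16* was found in 744 cells (54.2%) of Vehicle, 4 of Palo and 0 of Matrigel-only, where a count of 0 in 2085 still permits a share of 0.144% (3 cells). Neither gene was detected in 932, 462 and 812 cells, and both in 1, 35 and 0. Detection depends on depth and on free RNA. *Pi16* was seen in 5.83%, 2.79% and 4.34% of macrophage cells, whose medians were 2993 to 4160 UMIs, and *Acan* in 0%, 3.68% and 0%. With each cell thinned to 3000 UMIs, *Pi16* was seen in 45.5%, 7.86% and 22.6% of stromal and 4.76%, 2.497% and 2.88% of macrophage cells, and *Acan* in 50.1% of Vehicle stromal and 2.36% of Vehicle macrophage cells. Some cells with a UMI, most of all in the Vehicle class with *Pi16*, may thus hold only free RNA, and some without may express the gene. Levels are given as the CPM of a class of cells, from the UMIs of a gene summed over the class and all UMIs of the class. Intervals are 95% intervals, exact Poisson for levels, exact binomial for shares and conditional binomial for ratios, and they cover counting error only.

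Among the prolyl 4-hydroxylase alpha subunits, *P4ha1* and *P4ha2* were highest in Vehicle and *P4ha3* in Matrigel-only. *P4ha1*, the most widely expressed catalytic subunit, stood at 339 CPM (331 to 347) in Matrigel-only, at 459 (450.3 to 468) in Vehicle and at 283 (275 to 292) in Palo stromal cells. *P4ha2*, the subunit abundant in cartilage, stood at 452 CPM (443 to 462) in Matrigel-only, at 732 (721 to 743) in Vehicle and at 389 (379 to 399) in Palo. For both genes the order of summed CPM was Vehicle, Matrigel-only, Palo, and the intervals of the libraries, of counting error only, did not overlap. The median cell of *P4ha2* went the other way between Matrigel-only and Palo, at 271 and 313 CPM. In log2 ratios of CPM, *P4ha2* was higher in Vehicle than in Matrigel-only by 0.69 (0.66 to 0.73, 1.62-fold) and higher than in Palo by 0.91 (0.87 to 0.96, 1.88-fold). *P4ha1* was higher in Vehicle by 1.35-fold against Matrigel-only and by 1.62-fold against Palo. *P4ha3*, the least abundant subunit in most tissues, stood at 159 CPM (153 to 164) in Matrigel-only, at 132 (127 to 137) in Vehicle and at 111 (106 to 116) in Palo. Its order was therefore Matrigel-only, Vehicle, Palo, and Palo was 1.43-fold below Matrigel-only, at a log2 ratio of -0.52 (-0.60 to -0.43).

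On mm10, *P4ha1* lies on the plus strand at chr10:59323296-59373304, *P4ha2* on the plus strand at chr11:54100095-54131665 and *P4ha3* on the plus strand at chr7:100285520-100319699. The 250 bases before the RefSeq start of each gene (GRCm38.p6) are shown. Capitals mark ACGTG and GCGTG on either strand, so that CACGT and CACGC are the same letters on the opposite strand. These letters are the core of the hypoxia response element. The windows lie at chr10:59323046-59323295, chr11:54100674-54100923 and chr7:100285270-100285519, read 5′ to 3′ on the gene's strand. The *P4ha2* window lies within the span of the annotated gene, downstream of its first annotated base, and holds no annotated exon.
P4ha1: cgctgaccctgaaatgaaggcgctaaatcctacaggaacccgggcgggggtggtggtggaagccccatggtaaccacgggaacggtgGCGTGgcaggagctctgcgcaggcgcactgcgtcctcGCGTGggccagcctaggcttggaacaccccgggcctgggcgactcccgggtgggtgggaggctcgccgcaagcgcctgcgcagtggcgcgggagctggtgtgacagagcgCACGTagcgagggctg
P4ha2: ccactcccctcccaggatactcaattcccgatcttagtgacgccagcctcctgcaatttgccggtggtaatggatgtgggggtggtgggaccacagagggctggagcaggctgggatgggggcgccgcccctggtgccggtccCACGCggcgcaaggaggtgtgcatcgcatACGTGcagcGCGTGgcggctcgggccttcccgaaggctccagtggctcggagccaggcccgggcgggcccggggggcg
P4ha3: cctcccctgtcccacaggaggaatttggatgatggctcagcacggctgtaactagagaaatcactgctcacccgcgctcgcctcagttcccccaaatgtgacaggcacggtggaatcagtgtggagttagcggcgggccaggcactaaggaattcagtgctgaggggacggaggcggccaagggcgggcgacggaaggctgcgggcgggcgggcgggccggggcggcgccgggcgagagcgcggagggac
The *P4ha1* and *P4ha2* windows hold 3 such cores each and the *P4ha3* window holds 0. Over all 32851 RefSeq promoter windows of this length, 38.6% hold at least 1. A match is a description of letters and not a binding site, and its part in the levels was not tested.

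All 3 lysyl hydroxylases were highest in Vehicle. *Plod1*, which modifies lysines within the helix, stood at 257 CPM (250.4 to 264) in Matrigel-only, at 396 (388 to 404) in Vehicle and at 232 (224 to 239) in Palo. *Plod2*, which modifies the telopeptide lysines that give the stable cross-links of skeletal tissue, stood at 537 CPM (527 to 547) in Matrigel-only, at 919 (906 to 931) in Vehicle and at 415 (405 to 426) in Palo. *Plod3*, which also transfers sugars to hydroxylysine, stood at 157 CPM (151 to 162) in Matrigel-only, at 280.2 (274 to 287) in Vehicle and at 158 (152 to 164) in Palo. *Plod1* and *Plod3* were each within 1.11-fold between Matrigel-only and Palo, with overlapping intervals for *Plod3* only, while *Plod2* was 1.29-fold lower in Palo than in Matrigel-only, at a log2 ratio of -0.37 (-0.41 to -0.33). Vehicle over Matrigel-only gave 0.62 (0.57 to 0.67) for *Plod1*, 0.78 (0.74 to 0.81) for *Plod2* and 0.84 (0.78 to 0.90) for *Plod3*. Vehicle over Palo gave 0.77 for *Plod1*, 1.15 (1.11 to 1.19, 2.21-fold) for *Plod2* and 0.83 for *Plod3*. The *Plod2* difference between Vehicle and Palo was the largest positive one among the 10 genes in any of the 3 comparisons of stromal cells.

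*Plod1* lies on the minus strand at chr4:147909753-147936767, *Plod2* on the plus strand at chr9:92542223-92608428 and *Plod3* on the plus strand at chr5:136987019-136996648. *Plod3* overlaps the protein-coding gene *Znhit1* on the opposite strand, which had 1742, 2004 and 1423 stromal UMIs in Matrigel-only, Vehicle and Palo. *Plod2* had no window among the RefSeq windows used, and that of *Plod3* holds annotated exon bases. The window before the start of *Plod1* lies at chr4:147936777-147937026, holds no annotated exon and is shown with the same capitals.
Plod1: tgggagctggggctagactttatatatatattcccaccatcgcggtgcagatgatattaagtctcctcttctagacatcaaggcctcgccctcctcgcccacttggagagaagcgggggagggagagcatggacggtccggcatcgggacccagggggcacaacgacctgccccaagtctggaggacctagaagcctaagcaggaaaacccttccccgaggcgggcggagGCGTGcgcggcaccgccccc
It holds 1 core, 20 to 16 bases before the start. The *Plod3* window holds 4 cores, all within annotated exon bases, which fill 208 of its 250 bases.

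The lysyl oxidases went different ways. *Lox*, which oxidizes lysines of fibrillar collagens and elastin, stood at 1178 CPM (1163 to 1193) in Matrigel-only, at 1560.2 (1544 to 1576) in Vehicle and at 1149 (1132 to 1166) in Palo. *Loxl1*, which acts on elastin in elastic fibre assembly, stood at 982 CPM (968 to 996) in Matrigel-only, at 223 (217 to 229) in Vehicle and at 654 (641 to 667) in Palo. *Loxl2*, which cross-links collagen IV of basement membranes among other substrates, stood at 739.5 CPM (728 to 752) in Matrigel-only, at 458 (449.8 to 467) in Vehicle and at 722 (708 to 735) in Palo. *Lox* was highest in Vehicle, while *Loxl1* and *Loxl2* were lowest there. Vehicle over Matrigel-only gave a log2 ratio of -2.14 (-2.18 to -2.10, 4.4-fold lower) for *Loxl1*, below all but 2.79% of the 10311 genes tested, and -0.69 (-0.73 to -0.65, 1.61-fold lower) for *Loxl2*. Vehicle over Palo gave -1.55 (-1.60 to -1.50, 2.93-fold lower) for *Loxl1* and -0.65 (1.57-fold lower) for *Loxl2*. *Lox* was 1.32-fold higher in Vehicle than in Matrigel-only and 1.36-fold higher than in Palo. *Loxl1* was also 1.5-fold lower in Palo than in Matrigel-only, at -0.59 (-0.62 to -0.55), while *Lox* and *Loxl2* were within 1.03-fold there.

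Vehicle stromal cells were deeper. Counted as UMIs per stromal cell with no scaling, the ratios of all genes were shifted up by 0.84 (log2) against Matrigel-only and by 0.36 against Palo. On that scale *Loxl2* was higher in Vehicle than in Matrigel-only by 0.15, so its lower level there is relative to all other RNA. *Loxl1* was lower in Vehicle on that scale too, at log2 ratios of -1.30 and -1.19 against Matrigel-only and Palo.

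*Serpinh1* spanned the smallest range of CPM, as a fold, over the 3 libraries. It stood at 2665 CPM (2642 to 2688) in Matrigel-only, at 2548 (2528 to 2569) in Vehicle and at 2551 (2527 to 2576) in Palo, and the log2 ratios were -0.06 (-0.08 to -0.05) for Vehicle over Matrigel-only, 0.00 (-0.02 to 0.02) for Vehicle over Palo and -0.06 (-0.08 to -0.04) for Palo over Matrigel-only. The libraries thus lay within 1.05-fold of each other for this gene. *Serpinh1* is encoded on the minus strand at chr7:99345376-99353239, and the window before its start, at chr7:99353240-99353489, is shown as that of the member with the smallest span.
Serpinh1: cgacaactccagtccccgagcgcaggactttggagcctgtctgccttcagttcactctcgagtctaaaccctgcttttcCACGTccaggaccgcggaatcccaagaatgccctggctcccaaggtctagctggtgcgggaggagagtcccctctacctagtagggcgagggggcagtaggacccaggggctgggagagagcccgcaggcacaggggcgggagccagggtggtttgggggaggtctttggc
It holds 1 core and 0 matches to GAANNTTC, a short form of the heat shock element, which 6.69% of all promoter windows hold on either strand. Of the 6 members with a window in the RefSeq table, 4 hold ACGTG (16.6% of all windows), 4 hold GCGTG (28.2%), 1 holds CCAAT on either strand (33.8%) and 0 hold AGGTCA, the repeat unit bound by retinoic acid receptors (14.0%). *Plod2*, *Lox*, *Loxl1* and *Loxl2* had no window there and are left out of these counts.

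**Figure D1:**
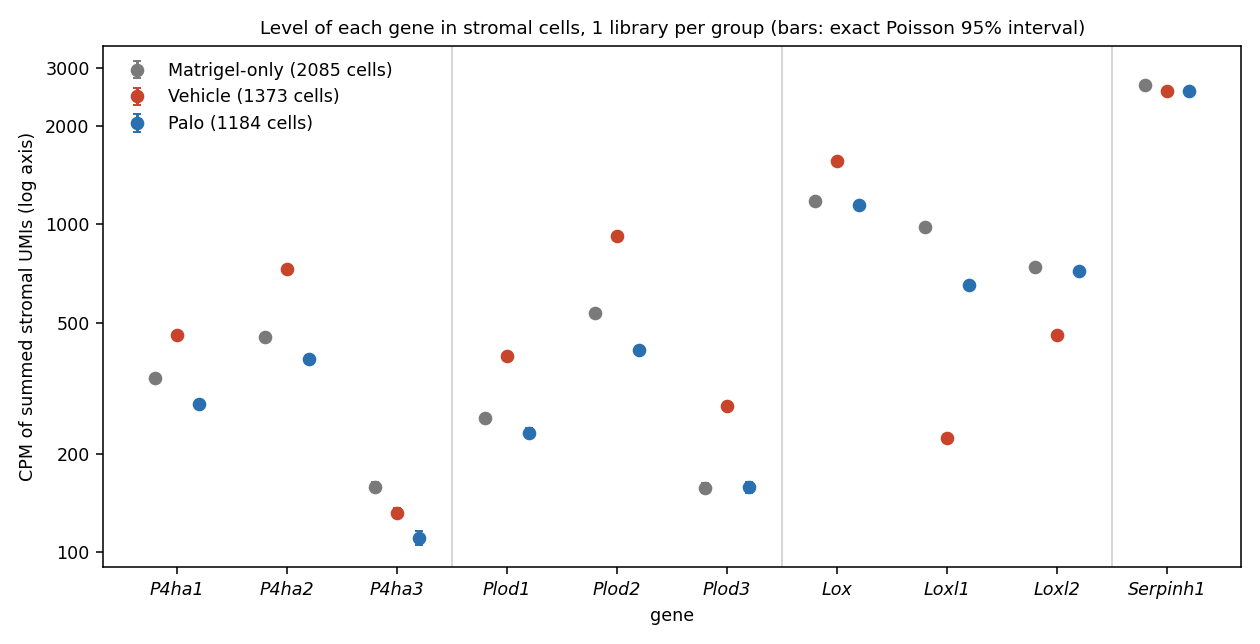
Level of each of the 10 genes in stromal cells as CPM on a log axis, with 1 point per library (grey Matrigel-only, red Vehicle, blue Palo) and exact Poisson 95% intervals, most of them smaller than the points. The red points lie above the others for *P4ha1*, *P4ha2*, the 3 *Plod* genes and *Lox*, and below them for *Loxl1* (223 against 982 and 654 CPM) and *Loxl2*.

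A gene was counted as different when its CPM was at least 1.5-fold apart, a limit of size and not a test. In Vehicle over Matrigel-only, 4 of 10 members were higher (*P4ha2*, *Plod1*, *Plod2*, *Plod3*) and 2 lower (*Loxl1*, *Loxl2*), where 10.7% of the 10311 genes tested were higher and 17.6% lower. The median log2 ratio was 0.42 over the members and -0.04 over all genes. In Vehicle over Palo, 5 were higher (the same with *P4ha1*) and 2 lower (*Loxl1*, *Loxl2*), where 9.39% of genes were higher and 14% lower, and the medians were 0.57 and -0.02. In Palo over Matrigel-only, 0 were higher and 1 was lower (*Loxl1*, at the limit), where 2.69% and 6.31% of 10299 genes were, and the medians were -0.18 and -0.03. *Loxl1* moved inside the limit in that last comparison with a stromal gate of 0.5%, TMM scaling, a total without gate and mitochondrial genes, 5 CPM added, UMIs per cell or classes weighted as in Palo, and within cells of 1 class (*Pi16* only, or neither marker). In Vehicle over Matrigel-only, *Plod1* fell under the limit without the cells of highest doublet score (log2 ratio 0.579) and without stromal cells holding 0.5% macrophage UMIs (0.577). *Loxl2* moved inside it with a stromal gate of 3% (-0.54) or the mean of each cell's own CPM (-0.53), and did so against Palo too (-0.48 and -0.53). The 3 comparisons share libraries, so their counts are not independent.

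**Figure D2:**
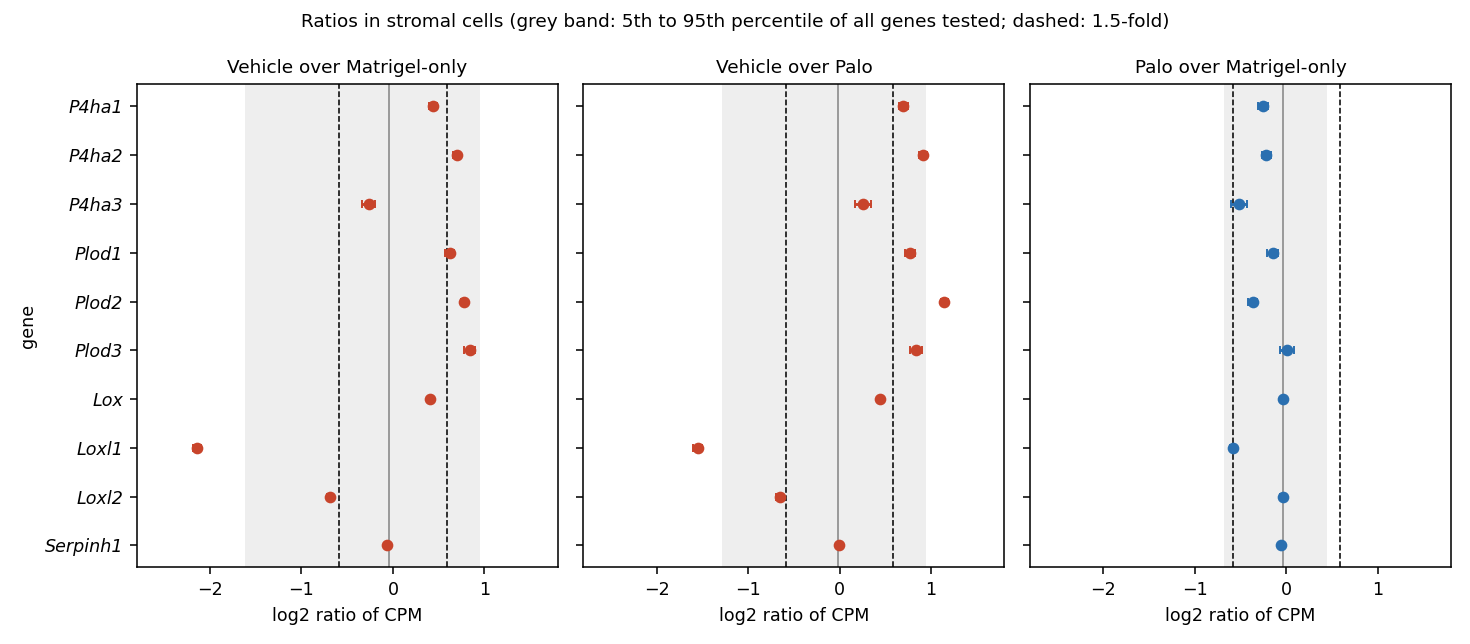
Log2 ratio of CPM in stromal cells for each gene (points, with conditional binomial 95% intervals) in the 3 comparisons, with the 5th to 95th percentile of all genes tested as a grey band, their median as a grey line and the 1.5-fold limits dashed. *Loxl1* lies below the band in both comparisons with Vehicle, at -2.14 and -1.55, and *Plod2* lies above it in Vehicle over Palo, at 1.15.

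Within each library the hydroxylases, apart from *P4ha3* in Vehicle, were lower, and *Loxl1* higher, in cells with *Pi16* than in cells with neither marker. In Matrigel-only, *P4ha2* stood at 288 CPM with *Pi16* and 609.6 with neither, and *Plod2* at 349.7 and 716. In Vehicle, *P4ha2* stood at 290.2 and 729 and *Plod2* at 452 and 718. In Palo the same pairs were closer, at 296 and 421 for *P4ha2* and 315 and 453 for *Plod2*. *Loxl1* went the other way in each library, with 1201 against 771 CPM in the Matrigel-only library, 754 against 282 in Vehicle and 897 against 570.2 in Palo. As log2 ratios of cells with *Pi16* over cells with neither, *Loxl1* was higher by 0.64, 1.42 (1.32 to 1.52) and 0.65.

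By count, Matrigel-only had 1 member higher with *Pi16* and 6 lower (*P4ha1*, *P4ha2*, the 3 *Plod* genes and *Loxl2*), where 8.58% and 9.73% of all genes were. Vehicle had 1 higher and 5 lower (*P4ha1*, *P4ha2* and the 3 *Plod* genes), against 14.4% and 12.4%. Palo had 1 higher and 1 lower (*Loxl2*), against 8.75% and 9.04%. The median over the members was -0.75, -0.56 and -0.49, and over all genes -0.05, -0.03 and -0.05. *Serpinh1* had log2 ratios of -0.19, -0.17 and -0.10. *P4ha3* was lower with *Pi16* in Matrigel-only (-0.49) and Palo (-0.55), while in Vehicle its ratio of 0.05 (-0.15 to 0.25) included 0. Cells with *Pi16* were shallower in each library, with median UMIs of 8414.5 against 10136.5 in the Matrigel-only library, 13361.5 against 17374.5 in Vehicle and 11021.5 against 13830 in Palo. The part of depth was not tested.

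Cells with *Acan* came from Vehicle in all but 5 cases, so they could be set only against the other Vehicle cells. *Plod2* stood at 1106 (1088 to 1124) CPM in cells with *Acan* only and 718 (699.8 to 737) in cells with neither, 1.54-fold higher. *Plod3* stood at 319.9 and 241, and *Plod1* at 437 and 369.9, both within the limit. *Loxl1* stood at 105 (99.96 to 111) and 282 (270.2 to 294), 2.67-fold lower with *Acan*, and *Loxl2* at 378 and 590.4, 1.56-fold lower. *Lox* did not follow them, at 1582 and 1621. Of the members 1 was thus higher and 2 lower, where 6.1% and 7.29% of genes were, with medians of 0.11 and -0.01. The 35 Vehicle cells with both markers held 419.9 (371 to 473) CPM of *Loxl1* and 827 (759 to 901) of *Plod2*, between the cells with *Pi16* only and those with *Acan* only for each gene. Depth was close, with medians of 17318.5 UMIs with *Acan* only and 17374.5 with neither.

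**Figure D3:**
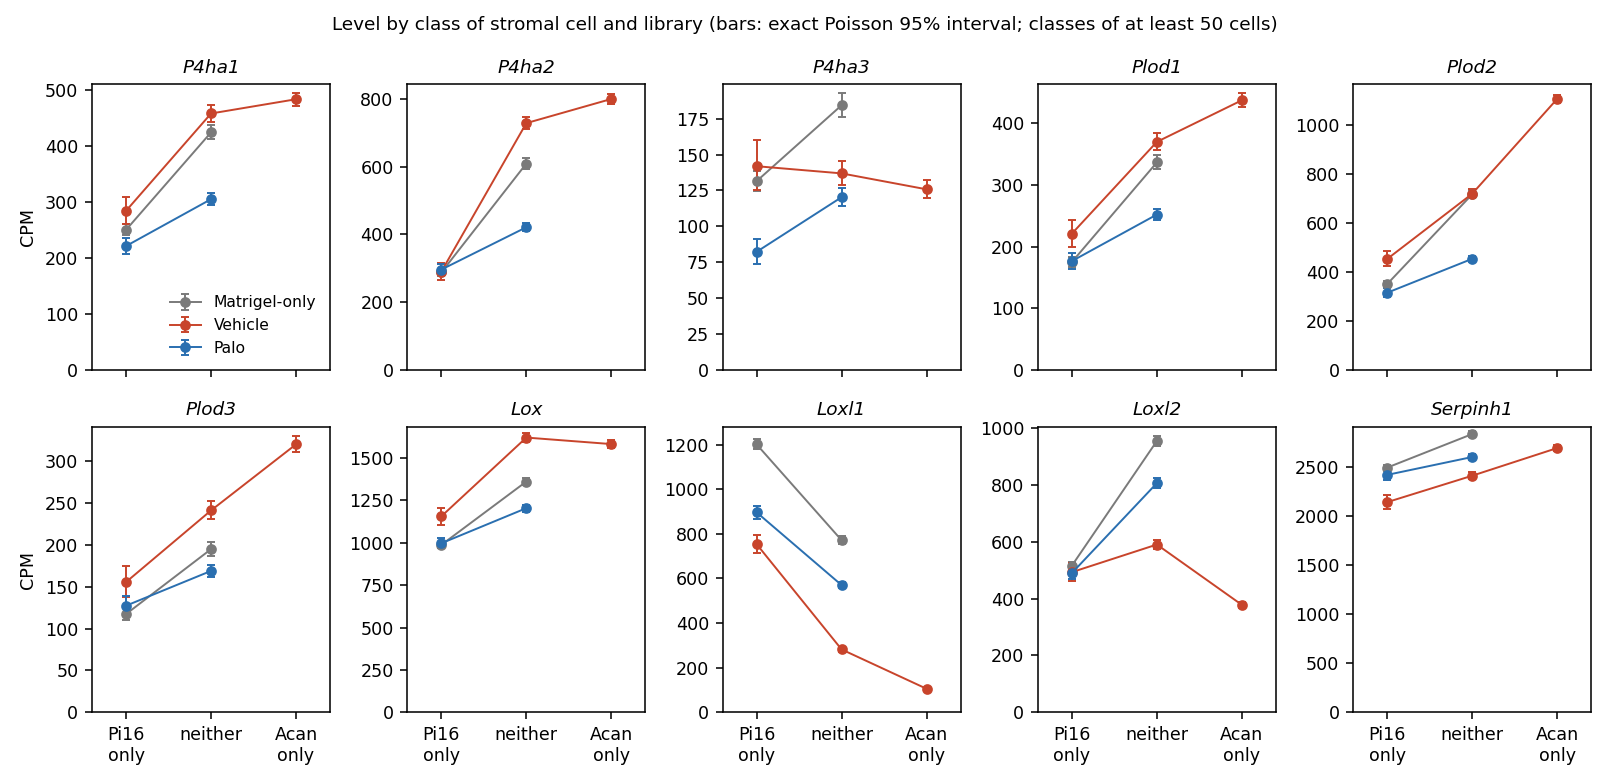
CPM of each gene by class of stromal cell (cells with *Pi16* only, neither marker, or *Acan* only) in the 3 libraries, for classes of at least 50 cells, with exact Poisson 95% intervals. *Loxl1* is lower in cells with neither marker than in cells with *Pi16* in each library, the *Plod* genes are higher, and only Vehicle has an *Acan* class of this size.

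Compared within a class, the Vehicle difference was smaller for most members. In cells with neither marker, *Plod2* stood at 716 CPM in Matrigel-only and 718 in Vehicle, a log2 ratio of 0.00 (-0.05 to 0.05), against 453 in Palo. *P4ha2* stood at 609.6 CPM in Matrigel-only, at 729 in Vehicle and at 421 in Palo. Of the members 0 were higher and 2 lower (*Loxl1*, *Loxl2*) in Vehicle over Matrigel-only, where 6.54% and 14.6% of genes were. In Vehicle over Palo, 3 were higher (*P4ha1*, *P4ha2*, *Plod2*) and 1 lower (*Loxl1*), against 7.73% and 12%. In Palo over Matrigel-only, 0 were higher and 2 lower (*P4ha3*, *Plod2*), against 1.98% and 5.57%. The members' medians were 0.06, 0.47 and -0.43, beside -0.06, -0.02 and -0.04 over all genes. *Loxl1* stayed apart in these cells, at 771 CPM (754 to 789) in Matrigel-only, at 282 (270.2 to 294) in Vehicle and at 570.2 (557 to 584) in Palo, 2.74-fold lower in Vehicle than in Matrigel-only and 2.02-fold lower than in Palo. These cells were not of 1 make-up: markers of *Pi16* progenitors summed to 2301, 623 and 1526 CPM and chondrocyte markers to 80.7, 319 and 67.5 in Matrigel-only, Vehicle and Palo, and their part in the difference was not tested.

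Among cells with *Pi16* only, fewer members were 1.5-fold apart. *Plod2* differed more between Vehicle and Matrigel-only than in cells with neither marker, at log2 ratios of 0.37 (0.26 to 0.48) and 0.00 (-0.05 to 0.05). The ratios of *P4ha1*, *Plod1* and *Plod3* were also larger with *Pi16* only, but their intervals overlapped between these classes. *P4ha2* stood at 288 CPM (277 to 299) in Matrigel-only, at 290.2 (266 to 316) in Vehicle and at 296 (279.9 to 313) in Palo, with all intervals overlapping. *Plod2* stood at 349.7 CPM (338 to 362) in Matrigel-only, at 452 (422 to 484) in Vehicle and at 315 (298 to 332) in Palo, highest in Vehicle. *Loxl1* stood at 1201 CPM (1179.8 to 1223) in Matrigel-only, at 754 (715 to 795) in Vehicle and at 897 (868 to 926) in Palo, and *Loxl2* at 516 CPM (502 to 530.4) in Matrigel-only, at 493 (462 to 526) in Vehicle and at 490.0 (469 to 512) in Palo, with overlapping intervals for *Loxl2*. In Vehicle over Matrigel-only 0 members were higher and 1 was lower (*Loxl1*, 1.59-fold), where 8.1% and 12.7% of genes were. In Vehicle over Palo 1 was higher (*P4ha3*, 1.73-fold) and 0 were lower, against 9.2% and 10.4%. In Palo over Matrigel-only 0 were higher and 1 was lower (*P4ha3*, 1.60-fold), against 3.01% and 6.19%. The members' medians were 0.15, 0.25 and -0.06. The Vehicle class held 132 cells, so its intervals are the widest, and markers of *Pi16* progenitors summed to 8451, 5718 and 6753 CPM in Matrigel-only, Vehicle and Palo cells of the class. When the classes without *Acan* were weighted as in the Palo library, 1 member was 1.5-fold apart in Vehicle over Matrigel-only (*Loxl1*, log2 ratio -1.12) and 3 in Vehicle over Palo. The share of all genes was not counted under this weighting.

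The 779 Vehicle cells with *Acan* were ordered further by UMIs of *Col2a1*, the main collagen of cartilage: 372 cells held none, 147 held 1 to 9 and 260 held 10 or more, with medians of 16988, 16521 and 18216 UMIs. *Loxl1* stood at 177 (167 to 188), 133 (119 to 148) and 35.3 (30.2 to 41.0) CPM in these cells. *Plod2* stood at 959 (936 to 983), 1072 (1031 to 1113) and 1285 (1253 to 1317). *Plod3* stood at 279 (266 to 292), 298 (277 to 320.3) and 384 (367 to 402). *Loxl1* was thus lowest, and *Plod2* and *Plod3* highest, in the cells richest in *Col2a1*. *Serpinh1* stood at 2546, 2574 and 2919 CPM, also highest there, while *Lox* ranged only from 1530.1 to 1609.5 and *P4ha2* from 766 to 817. *Loxl2* stood at 393, 404 and 349.5. The gate asks for collagen I, collagen III, decorin and lumican, so cartilage cells that had lost them would not be counted here, and 52 Vehicle cells lay between 0.5% and 1% of such UMIs.

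**Figure D4:**
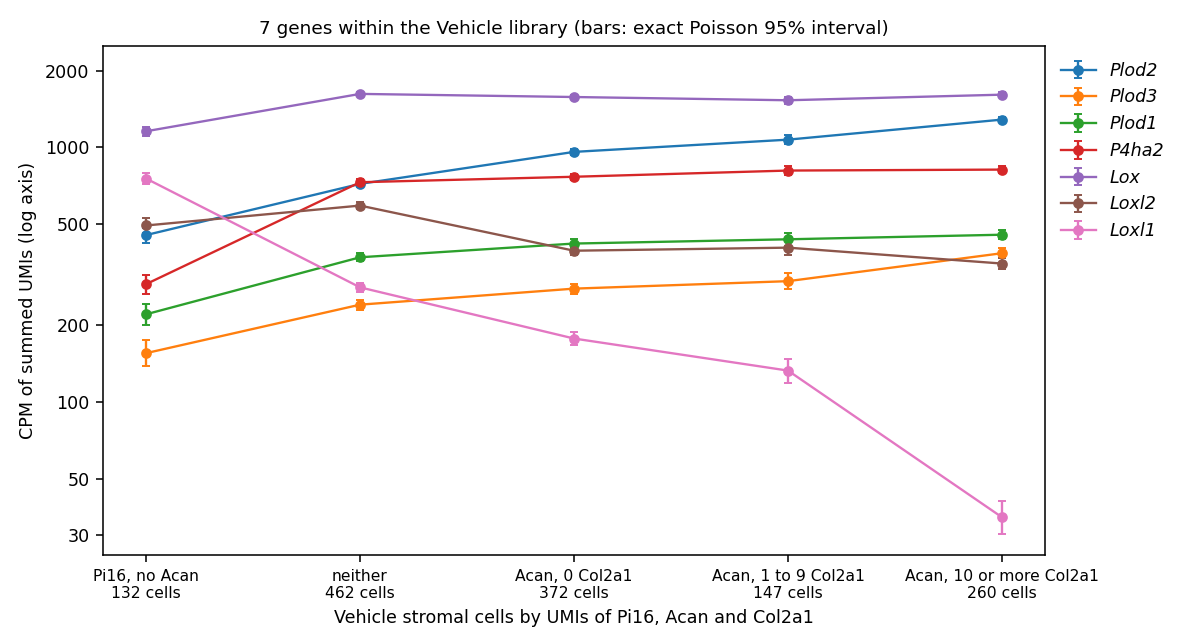
CPM on a log axis of 7 genes in 5 classes of Vehicle stromal cell, from cells with *Pi16* and no *Acan* through cells with neither to cells with *Acan* and increasing *Col2a1* UMIs, with exact Poisson 95% intervals. *Loxl1* descends from 754 to 35.3 CPM while *Plod2* climbs from 452 to 1285.

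*Lox* lies on the minus strand at chr18:52516067-52529867, *Loxl1* on the minus strand at chr9:58287738-58313186 and *Loxl2* on the plus strand at chr14:69609068-69695834. *Loxl2* overlaps the antisense gene *Gm27177*, which had 0 stromal UMIs in each library. The make-up of the transcripts of these 3 lysyl oxidases differed between libraries and classes. Of the UMIs of *Lox*, *Loxl1* and *Loxl2* together, *Loxl1* gave 33.9% in Matrigel-only cells, 9.95% in Vehicle and 25.9% in Palo stromal cells. The share of *Lox* was 40.6%, 69.6% and 45.5%. Within Vehicle the share of *Loxl1* was 31.4% in cells with *Pi16* only, 11.3% with neither and 5.10% with *Acan* only. The 3 genes summed to 2900 CPM in Matrigel-only, to 2242 in Vehicle and to 2524 in Palo. These shares and sums leave out *Loxl3* and *Loxl4*, which are not in the set. *Loxl3* stood at 161 CPM in Matrigel-only, at 361 in Vehicle and at 222 in Palo, and was thus highest in Vehicle. *Loxl4* stood at 6.38, 7.84 and 7.45 CPM. The prolyl 4-hydroxylases summed to 950 CPM, 1323 and 783, of which *P4ha3* gave 16.7%, 9.96% and 14.1%. The lysyl hydroxylases summed to 951 CPM, 1595 and 805, of which *Plod2* gave 56.4%, 57.6% and 51.6%. The shares of the lysyl hydroxylases were thus closer between libraries than those of *Lox* and *Loxl1*.

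**Figure D5:**
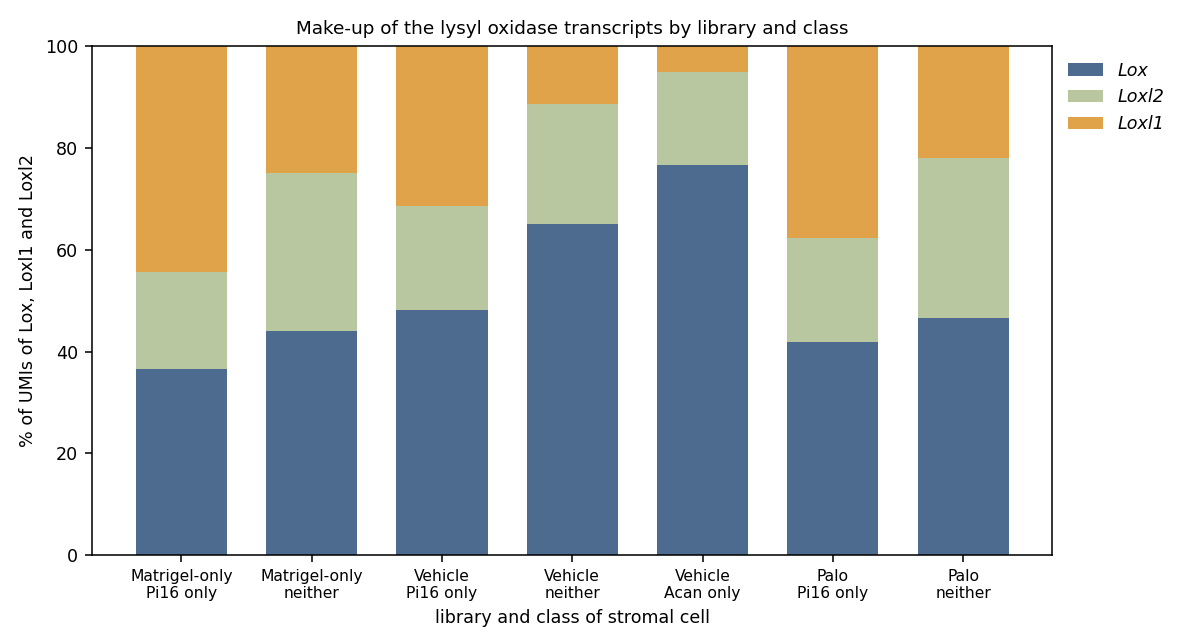
Share of the summed UMIs of *Lox*, *Loxl2* and *Loxl1* that each gene gave, in % from 0 to 100, for the 7 library-by-class groups of at least 50 cells. Each gene is to be compared between bars: *Loxl1* gives 44.4% in Matrigel-only cells with *Pi16* and 5.10% in Vehicle cells with *Acan*.

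Each cell was thinned to 3000 UMIs to compare shares of cells with a UMI, which left 1883, 1304 and 1131 stromal cells and dropped 202, 69 and 53. As with CPM, the thinned share was highest in Vehicle for *P4ha1*, *P4ha2*, the 3 *Plod* genes and *Lox*, and lowest there for *Loxl1* and *Loxl2*. Between Matrigel-only and Palo the shares of *P4ha2*, *Plod1*, *Lox* and *Loxl2* went against the CPM, so no order of these libraries is read from them. For *P4ha2* they were 58.1% and 61.3% after thinning and 77.2% and 88.3% before, and for *Lox* 80.9% and 85.5% after and 88.8% and 95.4% before. *Loxl1* was seen in 89.7% of Matrigel-only, 39.5% of Vehicle and 80.5% of Palo cells after thinning, and in 96.2%, 72.4% and 96.6% before. *Plod2* was seen in 63.6%, 84.8% and 62.5% after thinning, and in 81.7%, 95.8% and 89.4% before. *Plod3* was seen in 34.1%, 53.3% and 34.7%. *P4ha3* was seen in 33.8%, 31.8% and 26.6%, and *Serpinh1* in 99.7%, 99.7% and 99.3%. In macrophage cells thinned alike, *Plod2* was seen in 0.906%, 2.08% and 0.545% and *Loxl1* in 1.86%, 0.761% and 0.972%. The stromal shares of *Loxl1* and *Plod2* were thus far above the shares in macrophage cells. Cell by cell, the median level of *Loxl1* was 965 CPM in Matrigel-only cells, 134 in Vehicle and 606 in Palo, with lower and upper quartiles of 0 and 338 in Vehicle.

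The members were also measured in macrophage cells, those under the stromal gate with at least 1% of UMIs from 8 macrophage markers, of which there were 5779 in the Matrigel-only library, 2470 in Vehicle and 5479 in Palo. *P4ha1* stood at 129 CPM (124 to 134) in Matrigel-only, at 175 (167 to 183) in Vehicle and at 75.2 (71.9 to 78.6) in Palo. *Plod3* stood at 117 CPM in Matrigel-only, at 126 in Vehicle and at 111 in Palo, and *Plod1* at 62.9 CPM in Matrigel-only, at 87.2 in Vehicle and at 73.0 in Palo. As a percent of the stromal level these were 38.1, 38.1 and 26.6 for *P4ha1*, 74.7, 44.8 and 70.7 for *Plod3*, and 24.4, 22.0 and 31.5 for *Plod1*. The 5 gate genes had medians of 0.680%, 1.10% and 0.409%, the level that stromal RNA left in macrophage cells. *Plod2*, *Lox*, *Loxl1* and *Serpinh1* did not exceed the highest gate gene in any library and were read as background. *Loxl2* and *P4ha3* lay above that gene in Palo, at 1.22% and 1.08% against 0.597%. *P4ha3* did so in Vehicle too, at 2.31% against 1.94%, and the source of these counts was not tested. *P4ha2* lay at 2.91%, 3.49% and 1.31%. *P4ha1* was 2.32-fold higher in Vehicle than in Palo macrophage cells, at a log2 ratio of 1.22 (1.12 to 1.31), 1.35-fold higher than in Matrigel-only, and 1.72-fold lower in Palo than in Matrigel-only. It had the same order in stromal cells. Over all genes tested in macrophage cells the median of Vehicle over Palo was 0.15.

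Other genes that act on collagen were set beside the members, as a list of 20 of which 19 passed the filter. In stromal cells 5 higher and 2 lower of 19 were found in Vehicle over Matrigel-only, 4 higher and 2 lower in Vehicle over Palo, and 0 higher and 2 lower in Palo over Matrigel-only, with medians of 0.18, 0.16 and 0.03. Of all genes, 10.7% were higher and 17.6% lower, 9.39% and 14%, and 2.69% and 6.31%, with medians of -0.04, -0.02 and -0.03. *P3h2*, a prolyl 3-hydroxylase, stood at 1.95 CPM in Matrigel-only, at 20.3 in Vehicle and at 1.26 in Palo. *Colgalt2*, a collagen galactosyltransferase, stood at 6.28, 17.5 and 1.45. Both were low and passed the filter on the mean only through their Vehicle level, so their higher level there is not read as a result. They are counted among the higher genes above, and are the 2 lower in Palo over Matrigel-only. There *P3h2* rested on 20 against 39 UMIs, with an interval of -1.48 to 0.19 that included 0. The other higher genes in Vehicle over Matrigel-only were *Loxl3*, *P3h4* and *Fkbp10*, at log2 ratios of 1.17, 1.14 and 0.84. Against Palo they stood at 0.70, 0.80 and 0.44, the last within the limit. The procollagen N-proteinases *Adamts14* and *Adamts2* were lower in Vehicle, with log2 ratios of -2.65 and -1.37 against Matrigel-only and -2.77 and -1.0 against Palo.

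The collagens themselves differed in kind. Of 14 collagen genes outside the gate, Vehicle over Matrigel-only had 5 higher and 3 lower, Vehicle over Palo 4 higher and 4 lower, and Palo over Matrigel-only 3 higher and 1 lower of the 13 that passed. The shares of all genes were 10.7% and 17.6%, 9.39% and 14%, and 2.69% and 6.31%. *Col2a1* had 37404 stromal UMIs in Vehicle (1586 CPM), 1 in Matrigel-only and 0 in Palo. It passed the filter on the mean only through Vehicle and is counted among the higher genes. *Col11a1*, a fibrillar collagen of cartilage, stood at 19.9 CPM in Matrigel-only, at 958 in Vehicle and at 61.8 in Palo. *Col14a1*, *Col5a3* and *Col15a1* were lower in Vehicle than in Matrigel-only, at log2 ratios of -2.12, -1.79 and -1.84, and also lower than in Palo, at -2.01, -2.10 and -0.98.

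Genes induced by hypoxia were listed because *P4ha1*, *P4ha2* and *Plod2* are known targets of hypoxia-inducible factors, and the list of 16 held none of the 10 members. In stromal cells 12 higher and 1 lower of 16 were found in Vehicle over Matrigel-only, 15 higher and 0 lower in Vehicle over Palo and 0 higher and 9 lower in Palo over Matrigel-only, with medians of 0.75, 1.69 and -0.75. The shares of all genes were 10.7% and 17.6%, 9.39% and 14%, and 2.69% and 6.31%, with medians of -0.04, -0.02 and -0.03. *Car9*, a carbonic anhydrase, stood at 5.24 CPM in Matrigel-only, at 70.8 in Vehicle and at 3.98 in Palo. It passed the filter on the mean only through its Vehicle level and is counted among the higher genes. *Egln3*, an oxygen sensor, and *Slc2a1*, a glucose transporter, were lower in Palo than in Matrigel-only at log2 ratios of -2.70 and -1.76. By class, cells with *Pi16* had 0 higher and 13 lower of 16 than cells with neither in Matrigel-only, 0 and 15 of 16 in Vehicle, and 1 and 3 of 15 in Palo. Of all genes, 8.58% were higher and 9.73% lower in Matrigel-only, 14.4% and 12.4% in Vehicle, and 8.75% and 9.04% in Palo. In cells with neither marker, 3 were higher in Vehicle over Matrigel-only, 13 in Vehicle over Palo, and 12 were lower in Palo over Matrigel-only, where 6.54%, 7.73% and 5.57% of all genes were. Over all stromal cells the list was thus highest in Vehicle, as were *P4ha1*, *P4ha2* and *Plod2*. *Plod1*, *Plod3* and *Lox* were highest there too, while *P4ha3*, *Loxl1*, *Loxl2* and *Serpinh1* were not. The list's part in the members' levels was not tested.

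Of 14 genes of endoplasmic reticulum folding, 1 higher and 0 lower, 2 higher and 0 lower and 0 higher and 0 lower were found in the same 3 comparisons. The medians were 0.26, 0.28 and -0.04, beside -0.04, -0.02 and -0.03 over all genes. Of all genes, 10.7% were higher and 17.6% lower, 9.39% and 14%, and 2.69% and 6.31%. These shares and medians of all genes also stand beside the heat shock and dissociation lists. *Creld2* was higher in Vehicle by 0.78 (log2) than in Matrigel-only and by 0.80 than in Palo, and *Hsp90b1*, an endoplasmic chaperone, by 0.58 and 0.70. The 10 heat shock genes gave 4 higher and 3 lower, 1 higher and 2 lower and 1 higher and 0 lower, with *Hspa1a* at -1.61 and -2.11 and *Hspb1* at 1.69 and 0.99 in the comparisons with Vehicle. Of 10 genes that dissociation is known to induce, such as *Fosb* and *Egr1*, 1 higher and 8 lower were found in Vehicle over Matrigel-only and 1 higher and 8 lower in Vehicle over Palo, with medians of -1.20 and -1.44, and 0 higher and 0 lower in Palo over Matrigel-only. The part of the response to dissociation in the members' levels was not tested.

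Over the 7 library-by-class groups of at least 50 cells, the levels of *P4ha1*, *P4ha2*, *Plod1*, *Plod2*, *Plod3* and *Lox*, as log2(CPM + 5), moved together, with Pearson's r from 0.94 for *P4ha2* with *Plod2* to 0.99 for *P4ha1* with *Plod1*. *Loxl1* went against them, with r from -0.94 with *Plod3* to -0.78 with *P4ha1*. These are descriptions over 7 points that share 3 libraries and their depth. Among 6404 genes with at least 20 CPM, those most like *Plod2* were *Pgm2* (r = 0.997), *Egln1* (0.993) and *Ociad1* (0.992), and those most like *Plod3* were *Mif* (0.997), *Tpi1* (0.994) and *Vdac1* (0.993). Those most like *Plod1* were *Aimp2* (0.995), *Pfkl* (0.993) and *Mbnl2* (0.993). Those most like *P4ha1* were *Lonp1* (0.996), *Slc16a3* (0.995) and *Slc30a9* (0.993), and those most like *P4ha2* were *Gm49336* (0.991), *Tcf25* (0.988) and *Eif4ebp1* (0.988). *P4ha3* was most like *Nup98* (0.978), *Arpc4* (0.977) and *M6pr* (0.964). *Lox* was most like *Spp1* (0.998), *Sec63* (0.988) and *Rbp4* (0.988), *Loxl1* like *Ehd1* (0.997), *Cpne2* (0.996) and *Plat* (0.994), and *Loxl2* like *Tnk2* (0.982), *Cs* (0.974) and *Chka* (0.973). *Serpinh1* was most like *Icmt* (0.975), *Dgcr8* (0.970) and *Ubac1* (0.965).

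Within the 1373 Vehicle cells, each cell's own level of *Loxl1* had r = -0.55 with that of *Acan* and 0.50 with that of *Pi16*, and *Plod2* had r = 0.48 with *Acan*, -0.33 with *Loxl1* and 0.55 with *P4ha2*. The correlation of *Loxl1* with *Plod2* was weaker in the other libraries, at r = -0.20 in Matrigel-only and -0.01 in Palo cells. That of *Loxl1* with *Pi16* was 0.43 and 0.39 there. The cells behind each value come from 1 library and share its depth, and the values are descriptions.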

How the data were processed

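Single cells of day 5 masses were measured as 1 droplet library per group, grouped by the treatment label. The submitters' processing notes name Cell Ranger 3.0.2, mm10 and Seurat 3, and the authors deposited raw UMI counts for every barcode; the annotation release is not given in the sources used here. The gene symbols were matched to GENCODE vM21 on mm10 for positions, and promoter windows came from RefSeq on GRCm38.p6. The members and all lists were chosen with earlier results of these data known.

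Cells with 200 to 6000 genes and at most 5% mitochondrial UMIs were kept. UMIs were summed per library and class and scaled to CPM. Genes were counted in a comparison with a mean of at least 5 CPM over the libraries and more than 3 UMIs in 1 of the groups. Where classes of 1 library were compared, the mean was taken over both classes instead. A count of 0 was set to 3 for its ratio, a lower bound. Of other lists, up to 4 genes with the largest ratios were named, and for each member the 3 genes with the highest Pearson's r. *Loxl3*, *Loxl4*, *P3h4* and *Fkbp10* were named besides. Thinned shares used the hypergeometric formula at 3000 UMIs. Scrublet's own threshold called 1, 3 and 0 cells and was replaced by the highest scores at 0.8% per 1000 cells (609, 240 and 426 cells), left out as an alternative only. Ratios, intervals and thinning were tested on simulated counts that held counting error only. The intervals were thus not tested against spread between cells or masses. Other alternatives were gates of 0.5% and 3%, a mitochondrial limit of 10%, other scalings, classes and limits; UMIs per cell and cells with *Pi16* only were added after seeing the data. The study's other assays were not used here. Versions were Python 3.11.15, pandas 2.3.3, numpy 2.4.6, scanpy 1.11.5 with its Scrublet, scipy 1.17.1, matplotlib 3.10.9 and, for TMM factors, edgeR 4.0.16 under R 4.3.3.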

Additional observations from a re-analysis of the deposited data

Results flagged for a closer look

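For 2 genes the log2 ratio of the same comparison had opposite signs in stromal and in macrophage cells, each beyond counting error. The difference between the kinds of cell was not tested, since each group is 1 library. *Serpinh1*, Vehicle over Matrigel-only, had a log2 ratio of -0.065 (-0.08 to -0.05) in stromal cells and 0.65 (0.39 to 0.91) in macrophage cells, where its level was 0.548% and 0.898% of the stromal one, below the lowest gate gene in each of these libraries (0.572% and 0.990%). These macrophage counts were read as background above, so no macrophage difference is read from them. The medians of the gate genes there were 0.680% in Matrigel-only and 1.10% in Vehicle. The stromal ratio stood beside a median of -0.04 over all genes. *Plod1*, Palo over Matrigel-only, had -0.15 (-0.21 to -0.09) in stromal cells and 0.22 (0.11 to 0.32) in macrophage cells, where it stood at 62.9 CPM in Matrigel-only and 73.0 in Palo. Its stromal sign depended on the measure. Of 13 alternatives 11 kept it, while UMIs per cell gave 0.33 and cells with *Pi16* only gave 0.01. The median stromal cell stood at 161 CPM in Matrigel-only and 189 in Palo, and the thinned share at 44.9% and 45.9%.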

How the results depend on the processing

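No paired analysis was possible because the labels give no replicate numbers and each group is 1 library, and for the same reason no replicate could be left out. The count of members 1.5-fold apart was 6 in Vehicle over Matrigel-only, 7 in Vehicle over Palo and 1 in Palo over Matrigel-only. In Vehicle over Matrigel-only it was 5 without the highest doublet scores or the stromal cells holding 0.5% macrophage UMIs (*Plod1* lost), and with a 3% gate or each cell's own CPM (*Loxl2* lost); the last 2 gave 6 in Vehicle over Palo. In cells with neither marker it was 2, 4 and 2, and in cells with *Pi16* only 1 and 1 in the comparisons with Vehicle. With the classes without *Acan* weighted as in Palo it was 1 and 3, and at a 2-fold limit 1, 2 and 0. The share of all genes was not counted under that weighting. Nor was it counted without the highest doublet scores or the cells holding macrophage UMIs, with other gates or with each cell's own CPM. Over all genes tested, Vehicle over Matrigel-only was -1.09 (log2) at the 9th percentile and 1.10 at the 96th. Vehicle over Palo was -1.04 at the 7th and 1.11 at the 96th. In Palo over Matrigel-only the count of members was 0 with a 0.5% gate, TMM scaling, a total without gate and mitochondrial genes, 5 CPM added, or UMIs per cell. Of all genes there, 3.03% were higher and 5.87% lower with TMM scaling, and 2.85% and 6.04% with that total. As UMIs per cell 28.6% were higher and 1.89% lower. The share was not counted with 5 CPM added. UMIs per cell moved the median of all genes by 0.84, 0.36 and 0.48 (log2). It gave 7 members higher and 1 lower in each comparison with Vehicle, against 4 and 2 and 5 and 2 in CPM, where 67.2% of all genes were higher and 6.27% lower than in Matrigel-only and 26.1% and 8.07% than in Palo. Of differences past the limit, *Loxl2* in Vehicle over Matrigel-only turned to 0.15 on that scale, and in cells with *Pi16* only, *P4ha2* and *Loxl2* in Vehicle over Palo turned to -0.029 and 0.0094. With no filter on low values, 46.4%, 41.4% and 31.5% of all genes were 1.5-fold apart against 28.3%, 23.4% and 9% of genes. The causes were not tested. Ratios and shares carry counting error only, and the spread between mice is unknown.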

Other observations

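Markers of other cell types in stromal cells were low and uneven between libraries. Endothelial markers summed to 57.8 CPM in Matrigel-only, to 5.93 in Vehicle and to 34.7 in Palo, mural markers to 45.8, 96.8 and 39.5, and pan-leukocyte markers to 284, 121 and 242. Those of T and NK cells, muscle, adipocytes, epithelium and Schwann cells were each at most 7.5 CPM in every library, and *Myh4*, *Lep*, *Sox10* and *Krt5* had no UMI in any. Their part in the members' levels was not tested.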
